A study of Mus musculus with 2 samples.

Results

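The genes described here are the cadherins named Cdh followed by a number and the protocadherins named Pcdh, as translated in the mouse brain. They were chosen by name alone. Every gene with a protein-coding transcript and such a symbol was taken, which gave 90 genes of the 45578 in the table, or of 21874 protein-coding genes. They comprised 23 Cdh genes, 12 protocadherins outside the gene clusters, and 13, 22 and 20 genes of the alpha, beta and gamma protocadherin clusters.

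Cadherins are calcium-dependent adhesion proteins that join like cells through repeats outside the membrane. Classical cadherins reach the actin cytoskeleton through catenins bound to their tail, while protocadherins lack the catenin-binding tail. In the clusters, each alpha or gamma gene splices its own large variable exon to small constant exons shared by the whole cluster, and the beta genes have no constant exons. Each neuron expresses its own mix of cluster genes, a surface identity used in self-avoidance. The C-type genes at the end of the alpha and gamma clusters are expressed more uniformly.

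The data come from RiboLace, a pull-down of translating ribosomes on beads that carry a puromycin analogue, followed by sequencing of the ribosome-protected RNA fragments (footprints) of 25 to 35 nucleotides. The tissue was brain at postnatal day 5 from control mice of the Taiwanese spinal muscular atrophy line, congenic on FVB, of genotype Smn+/-; SMN2tg/0. By this notation both samples carried 1 intact mouse Smn copy and the human SMN2 transgene, so no wild-type brain is included. There was 1 group of 2 biological replicates. Whether each replicate is a separate animal is not given in the sources used here. The exact binomial p-values below therefore set the difference between these 2 libraries against counting error only, and such a difference may be technical.

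Replicate 1 held 343552 footprint counts over all genes and replicate 2 held 120282. After scaling to library size as CPM, 1 count was worth 2.71 CPM in the first library and 8.93 CPM in the other. All 8 neuronal markers of a fixed list had counts in both libraries, with a median density of 435 CPM per kilobase of coding sequence. The 8 astrocyte and radial glia markers had a median density of 229, the 7 oligodendrocyte lineage markers one of 95.96 and the 6 microglial markers one of 26.2. Endothelial markers had a median density of 6.12, with Emcn at 0 counts. Of the choroid plexus and epithelial list only Ttr was abundant, and Tubb3 and Col1a1 were the only marker genes called different between the libraries, both higher in replicate 2. In whole tissue, fewer cells of a type and less RNA per cell cannot be told apart.

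The 90 genes held 0.457% of counts in replicate 1 (1569 counts, 95% Wilson interval 0.435 to 0.480) and 0.382% in replicate 2 (459 counts, 0.348 to 0.418). The mean was 0.419% ± 0.053 (SD, n = 2). Where a fragment of a shared exon was counted for several genes of a cluster, it enters this share repeatedly. With each of the alpha and gamma clusters entered once, through its highest gene, the mean share was 0.277%. This leaves out fragments that match only other genes of these clusters, so it is a lower limit. The shares above are of all counts. Protein-coding genes held 279531 of these counts in replicate 1 and 87925 in replicate 2. Of that protein-coding part, the 90 genes held 0.561% and 0.522%. Intervals cover counting error only, because reads copied by PCR cannot be told from separate molecules here.

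A mean of at least 10 counts over the 2 libraries, the threshold for testing, was reached by 32 of the 90 genes. These were 6 Cdh genes, 8 non-clustered protocadherins, 6 alpha genes and 12 gamma genes. No beta gene reached it. At least 1 count was present for 85 of the genes in replicate 1 and for 79 in replicate 2, and 5 genes had no count in either. The median density of the 90 genes was 10.4 CPM per kilobase (11.7 in replicate 1 and 9.57 in replicate 2). All protein-coding genes had a median of 4.61, and 77 of the 90 genes lay above the 50th percentile of coding genes. That percentile is reached with few counts: Cdh18, with 5 and 1, lay at 50.4. By their highest protein-coding transcript, 34.7% of all coding genes had 0 counts and 19.9% reached the threshold. Coding genes past the threshold had a median density of 61.4. Density divides the level of a gene by its coding length and is the scale used to compare genes outside the clusters. Within a cluster, counts are also set side by side without division by length.

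**Figure D1:**
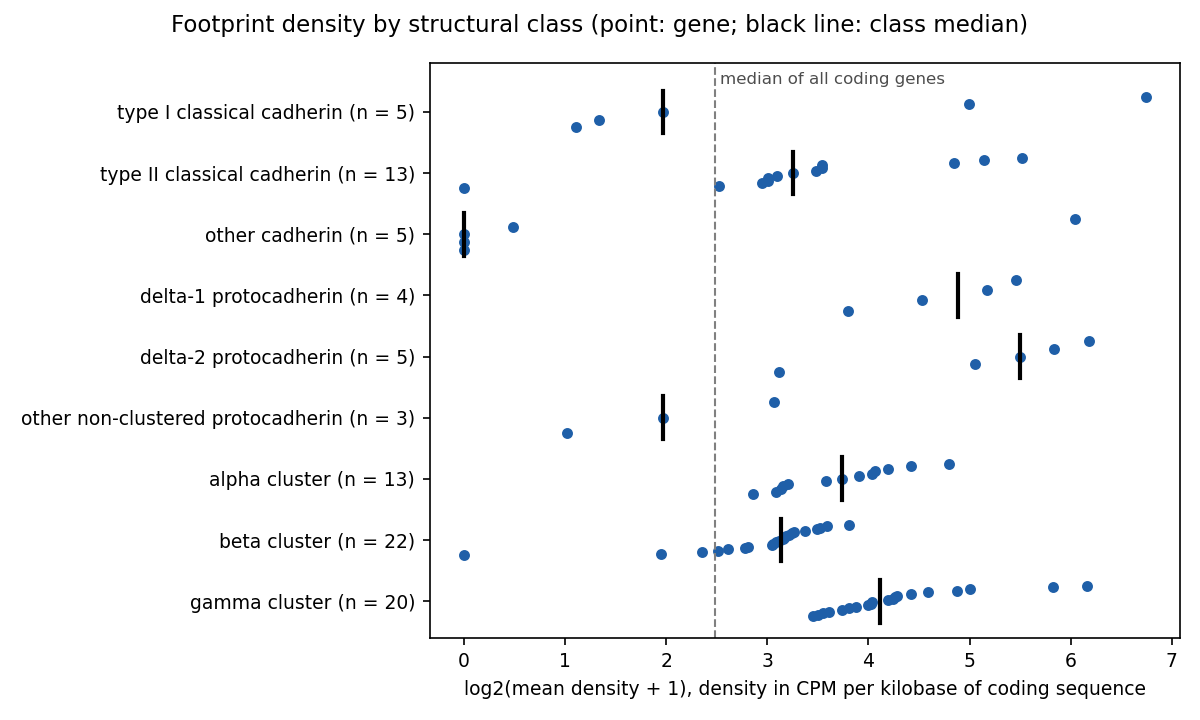
Mean footprint density of each of the 90 genes on a log2(density + 1) axis, grouped by structural class, with the class median as a black line and the median of all coding genes, 4.61 CPM per kilobase, as a dashed line. The delta-1 and delta-2 protocadherins have the highest class medians, 28.6 and 44.3, and the type I cadherins span from 1.15 to 106.

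Among the type I classical cadherins, N-cadherin had the highest level. Cdh2 (ENSMUSG00000024304), the main cadherin of neural progenitors and synapses, had 104 counts in the first library and 33 in the second. Its density was 104 and 108 CPM per kilobase, a mean of 106 ± 3.34 (SD, n = 2), at percentile 93.2 of coding genes and the highest of the 90. Among coding genes past the threshold it stood at percentile 66.9. Both libraries put it at nearly the same level. Cdh4 (R-cadherin), its close relative in neurons, had 33 and 9 counts and a density of 31.0 ± 2.34 (SD, n = 2). In replicate 1 the 95% Poisson interval of Cdh2, 84.6 to 126, lay wholly above that of Cdh4, 22.5 to 45.8. The same held in replicate 2, at 74.5 to 152 against 13.4 to 55.6.

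The 3 remaining type I genes were near absent. Cdh1 (E-cadherin), the cadherin of epithelia, had 3 counts in replicate 1 and 0 in replicate 2. Cdh3 (P-cadherin) had 2 and 1 counts, and Cdh15 (M-cadherin of muscle) had 2 and 0. The epithelial marker genes were as low, with Epcam at 0 counts and Krt8 and Krt18 at 1 and 2 counts in replicate 1 and 0 in replicate 2. A count of 0 allows up to 3 counts, or a share of 0.00087% in replicate 1 and 0.0025% in replicate 2.

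The 13 type II classical cadherins were spread more evenly, with 3 past the threshold and 10 below it. Cdh11, known from mesenchyme and also made in brain, had 43 and 11 counts and the highest density of the class, 44.9 ± 5.41 (SD, n = 2). Cdh8, which marks sets of cortical and striatal neurons, had 25 and 9 counts and a density of 34.4 ± 4.15. Cdh6, which marks boundaries between brain regions, had 19 and 9 counts and a density of 27.8 ± 8.61. In replicate 1 the interval of Cdh11, 35.3 to 65.6, lay above that of Cdh6, 13.1 to 33.9, and in replicate 2 the intervals of all 3 genes overlapped. All 6 meningeal and fibroblast markers had counts, with 0.0629% of all counts in replicate 1 and 0.0823% in replicate 2. Col1a1 among them had 87 and 48 counts and was called higher in replicate 2 (adjusted exact binomial p = 0.037), and Lum had 1 and 0. Their part in the level of Cdh11 was not tested.

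The type II genes below the threshold had summed counts of 0 to 16. Cdh10 was the highest of them, with 14 counts in replicate 1 and 2 in replicate 2, although its transcript with the most counts is annotated for nonsense-mediated decay. Its coding transcripts had 11 and 3, and 12 and 2 counts. Cdh5 (VE-cadherin), which joins endothelial cells, had 5 and 3 counts and a density of 8.56 CPM per kilobase. The endothelial markers had a median density of 6.12, and ran from Emcn at 0 counts to the tight-junction gene Cldn5 at 28 and 13. The 8 endothelial markers held 0.0189% and 0.0249% of counts, and their part in the level of Cdh5 was not tested. Cdh20 had 9 and 3 counts, Cdh12 had 8 and 3, Cdh22 had 7 and 2, and Cdh7 and Cdh9 each had 9 and 1. These genes mark subsets of neurons. Cdh24 had 5 and 2 counts and Cdh18 had 5 and 1. Cdh19, known from Schwann cells, had none in either library. The class median density was 8.56 CPM per kilobase, and 12 of 13 genes lay above the 50th percentile of all coding genes, those with 0 counts included.

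T-cadherin was the only abundant gene among the atypical cadherins. Cdh13, held in the membrane by a lipid anchor and without an intracellular tail, had 53 and 15 counts. Its density of 67.0 and 62.4, or 64.7 ± 3.19 (SD, n = 2), was close to that of the highest protocadherins. Its 6 other transcripts, none of them coding, had 7 to 26 counts in replicate 1 and 2 to 5 in replicate 2. Cdh23, a component of the tip links of hair cells, had 3 and 0 counts over a coding sequence of 10065 nucleotides. Cdh16, Cdh17 and Cdh26 had 0 counts in both libraries.

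The delta-2 protocadherins had the highest median density of the classes, with 4 of 5 genes past the threshold. Pcdh17 (ENSMUSG00000035566), which acts in the assembly of synapses, had 75 and 33 counts. Its density was 58.5 in replicate 1 and 84.8 in replicate 2, or 71.7 ± 18.6 (SD, n = 2). It lay above Cdh13 in replicate 2 and below it in replicate 1. Pcdh10, needed for the growth of striatal axons, had 63 and 20 counts and a density of 55.9 ± 1.78. Pcdh19, whose human counterpart is an X-linked epilepsy gene, had 53 and 18 counts and a density of 44.3 ± 3.52. Pcdh8, known as arcadlin and induced by neuronal activity, had 37 and 12 counts and a density of 32.3 ± 1.52. The levels of Pcdh10, Pcdh19 and Pcdh8 were close in both libraries. Pcdh18 stayed below the threshold, with 16 counts in replicate 1 and 1 in replicate 2.

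All 4 delta-1 protocadherins passed the threshold, with a lower class median density, 28.6 against 44.3 CPM per kilobase. Single genes of these classes overlapped, since Pcdh1 and Pcdh7 were denser than Pcdh8. Pcdh1 had 59 and 12 counts and a density of 51.3 and 34.4, or 42.8 ± 11.96 (SD, n = 2). Pcdh7, known as NF-protocadherin, had 45 and 16 counts and a density of 35.1 ± 3.93. Pcdh9 had 34 and 8 counts and a density of 22.0 ± 3.94. Pcdh11x, the X-linked member, was the lowest, with 15 and 7 counts and a density of 12.9 ± 3.86. In replicate 1 its interval of 5.68 to 16.7 lay below that of every other gene of the order except Cdh6, while in replicate 2 it lay below those of Cdh2, Pcdh17, Cdh13 and Pcdh10 alone.

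The 3 other non-clustered protocadherins were low. Pcdh20 had 9 and 2 counts, the endothelial Pcdh12 had 1 and 2, and Pcdh15, the partner of Cdh23 in tip links, had 1 in each library over a coding sequence of 5691 nucleotides.

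Ordered by density, the 14 tested genes outside the clusters ran from Cdh2 through Pcdh17, Cdh13, Pcdh10, Cdh11, Pcdh19, Pcdh1, Pcdh7, Cdh8, Pcdh8, Cdh4, Cdh6 and Pcdh9 to Pcdh11x. Of the 13 pairs of neighbours in this order, 11 had overlapping 95% Poisson intervals in replicate 1 and 13 in replicate 2. The exceptions in replicate 1 were Cdh2 against Pcdh17 and Pcdh9 against Pcdh11x. Cdh2 lay apart from Cdh11 in both libraries, and Pcdh17 from Pcdh8. The order within the middle of the list is therefore not resolved at this depth. Summing all transcripts of a gene moved Pcdh10 to the top and Pcdh17, which has 1 transcript in the table, to the 10th place. Dividing by transcript length instead left Cdh2 first and put Pcdh10 at place 8.

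**Figure D2:**
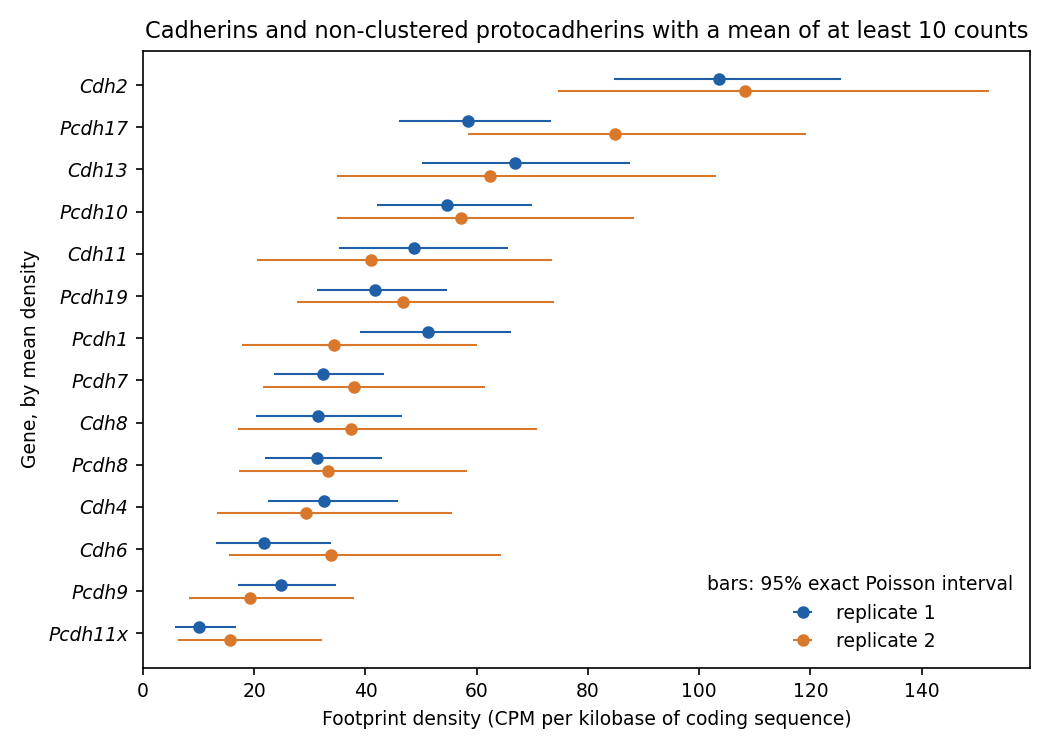
Footprint density in CPM per kilobase of coding sequence for the 14 cadherins and non-clustered protocadherins with a mean of at least 10 counts, in replicate 1 (blue) and replicate 2 (orange), with 95% exact Poisson intervals. Cdh2 is highest at 104 and 108, Pcdh11x is lowest at 10.1 and 15.6, and most neighbours overlap.

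The choice of transcript bears on these levels, since transcripts of a gene share much of their sequence. In Pcdh7, the transcript with 1138 and 3879 nucleotides of 5' and 3' untranslated sequence had 45 and 16 counts. A transcript with nearly the same coding sequence and only 8 untranslated nucleotides had 39 and 12. These counts were close. In Pcdh11x, of 2 transcripts with the same coding length of 4017 nucleotides, the one without a 3' untranslated region had 14 and 6 counts and the one with 4263 nucleotides of it had 11 and 5.

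A longer transcript that contains the same sequence would hold at least as many counts if each shared fragment were counted for both. Over the whole table, 210 library-wise pairs of transcripts of the same gene had the same coding length, total lengths within 20 nucleotides and at least 20 counts together. The counts were equal in 10.95% of these pairs, the shorter transcript was higher in 40.0%, and the median difference was 6.10% of the pair's sum. Whether coding sequences of equal length are the same sequence was not tested. How a fragment that matches several transcripts was counted is not given in the sources used here. This bears on the alpha and gamma clusters, whose constant exons are shared by every gene.

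Among the alpha genes, the C-type gene Pcdhac2 was highest. Pcdhac2 (ENSMUSG00000102697), which spaces the axons of serotonergic neurons, had 40 counts in replicate 1 (95% Poisson interval 28.6 to 54.5) and 6 in replicate 2 (2.202 to 13.1). In replicate 1 the next gene, Pcdha3, had 23 (14.6 to 34.5), so the intervals overlapped, and in replicate 2 the highest count was that of Pcdha12. The lead of Pcdhac2 rests on replicate 1. The other C-type gene, Pcdhac1, had 11 and 2 counts.

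The alternate alpha genes formed a narrow range. Those past the threshold were Pcdha12 with 20 and 7 counts, Pcdha3 with 23 and 3, Pcdha11 with 20 and 5, Pcdha6 with 19 and 4, and Pcdha5 with 19 and 3. By summed counts the lowest alpha gene was Pcdha1, with 10 and 2. By density it was Pcdha7, with 13 and 0 counts and 6.26 CPM per kilobase against 7.90 for Pcdha1. Median counts of the cluster were 16 and 3 in the respective libraries, with a median density of 12.3 CPM per kilobase. No more than 10 fragments in replicate 1 can have been counted for the highest transcript of every alpha gene, since Pcdha1 had 10. In replicate 2 none can, since Pcdha7 had 0 counts. For Pcdha4, whose highest transcript is non-coding, the coding transcript had 9 and 2. As a share of all counts the alpha genes together made up 0.0667% in replicate 1, with a 95% Wilson interval from 0.0586 to 0.0759. The share was 0.0341% (0.0251 to 0.0462) in replicate 2, and alpha was the only cluster whose intervals did not overlap. Where a fragment was counted for several alpha genes, these intervals are too narrow.

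The gamma cluster had 2 genes with the highest counts in both libraries. Pcdhga8 (ENSMUSG00000023036) had 65 counts in replicate 1 (95% Poisson interval 50.2 to 82.8) and 25 in replicate 2 (16.2 to 36.9). The C-type gene Pcdhgc3 (ENSMUSG00000102918) had 59 (44.9 to 76.1) and 17 (9.90 to 27.2). Together they held 28.8% of the cluster's counts in replicate 1 and 30.4% in replicate 2, against 18 other genes. Their densities were 70.7 ± 11.8 and 55.6 ± 2.04 CPM per kilobase (SD, n = 2), in the range of Pcdh17 and Pcdh10.

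The 18 other gamma genes had 6 to 29 counts in replicate 1 (median 16.5) and 1 to 11 in replicate 2 (median 4.5). In replicate 1 the intervals of Pcdhga8 and Pcdhgc3 lay above those of all 18, whose highest upper bound was 41.6 (Pcdhgb6). In replicate 2 they overlapped those of several, such as Pcdhga11 with 11 counts (5.49 to 19.7).

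Next in order of summed counts were Pcdhga11 with 28 and 11, Pcdhgb6 with 29 and 9, Pcdhga1 with 25 and 4, and Pcdhga10 with 18 and 9. Pcdhgb7 had 19 and 7 counts, Pcdhga12 had 22 and 3, Pcdhga9 had 16 and 6, Pcdhgb1 had 18 and 4, Pcdhga2 had 14 and 7, and Pcdhga6 had 17 and 3. Neighbouring genes along the cluster (order from RefSeq) had lower counts: Pcdhgb4 and Pcdhgb5, on either side of Pcdhga8, had 15 and 3, and 15 and 4 counts. The lowest gene by summed counts was the C-type Pcdhgc5, with 6 and 5. In replicate 1 its interval of 2.202 to 13.1 lay below that of Pcdhgc3, and in replicate 2 the intervals overlapped. By density the lowest gamma gene was Pcdhga5, with 14 and 2 counts and 9.97 CPM per kilobase.

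Single transcripts of both genes were compared with the full ones. A short coding transcript of Pcdhga8 with a 3' untranslated region of 1744 nucleotides, the same length as in the full transcript, and a coding sequence of 396 had 10 and 0 counts. The full transcript had 65 and 25. For Pcdhgc3, a transcript of 3380 nucleotides annotated as a retained intron had 52 and 15 counts against 59 and 17 in the full transcript of 4687. No more than 6 fragments in replicate 1 and 1 in replicate 2 can have been counted for the highest transcript of all gamma genes, the counts of Pcdhgc5 and Pcdhga4. Fragments counted for some but not all genes of a cluster could not be separated, so each single level stays uncertain.

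The beta genes, which have no constant exons, were low. Their 22 genes had 0 to 13 counts in replicate 1 (median 5.5) and 0 to 4 in replicate 2 (median 2), over coding sequences of 2319 to 2490 nucleotides. Pcdhb14 was highest by summed counts and by mean density, with 13 and 3 counts. Pcdhb16 also had 13 in replicate 1, and Pcdhb9 and Pcdhb20 had more in replicate 2, with 4 each. The 3' untranslated region of Pcdhb14, 6117 nucleotides, is also the longest of the cluster. Pcdhb1 was lowest with 0 in both libraries. The median density was 7.78 CPM per kilobase, against 16.4 in the gamma and 12.3 in the alpha cluster. The beta and alpha medians were 6.35 and 15.2 in replicate 1 but 7.45 and 9.41 in replicate 2. Counts include untranslated regions, which density does not divide by. Beta genes with 3' untranslated regions of 1500 nucleotides or more had median counts of 10 and 2, the others 5 and 2. The part of these regions in the differences between clusters was not tested. Beta genes are also close paralogs, so that fragments of their single exon can match several of them.

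**Figure D3:**
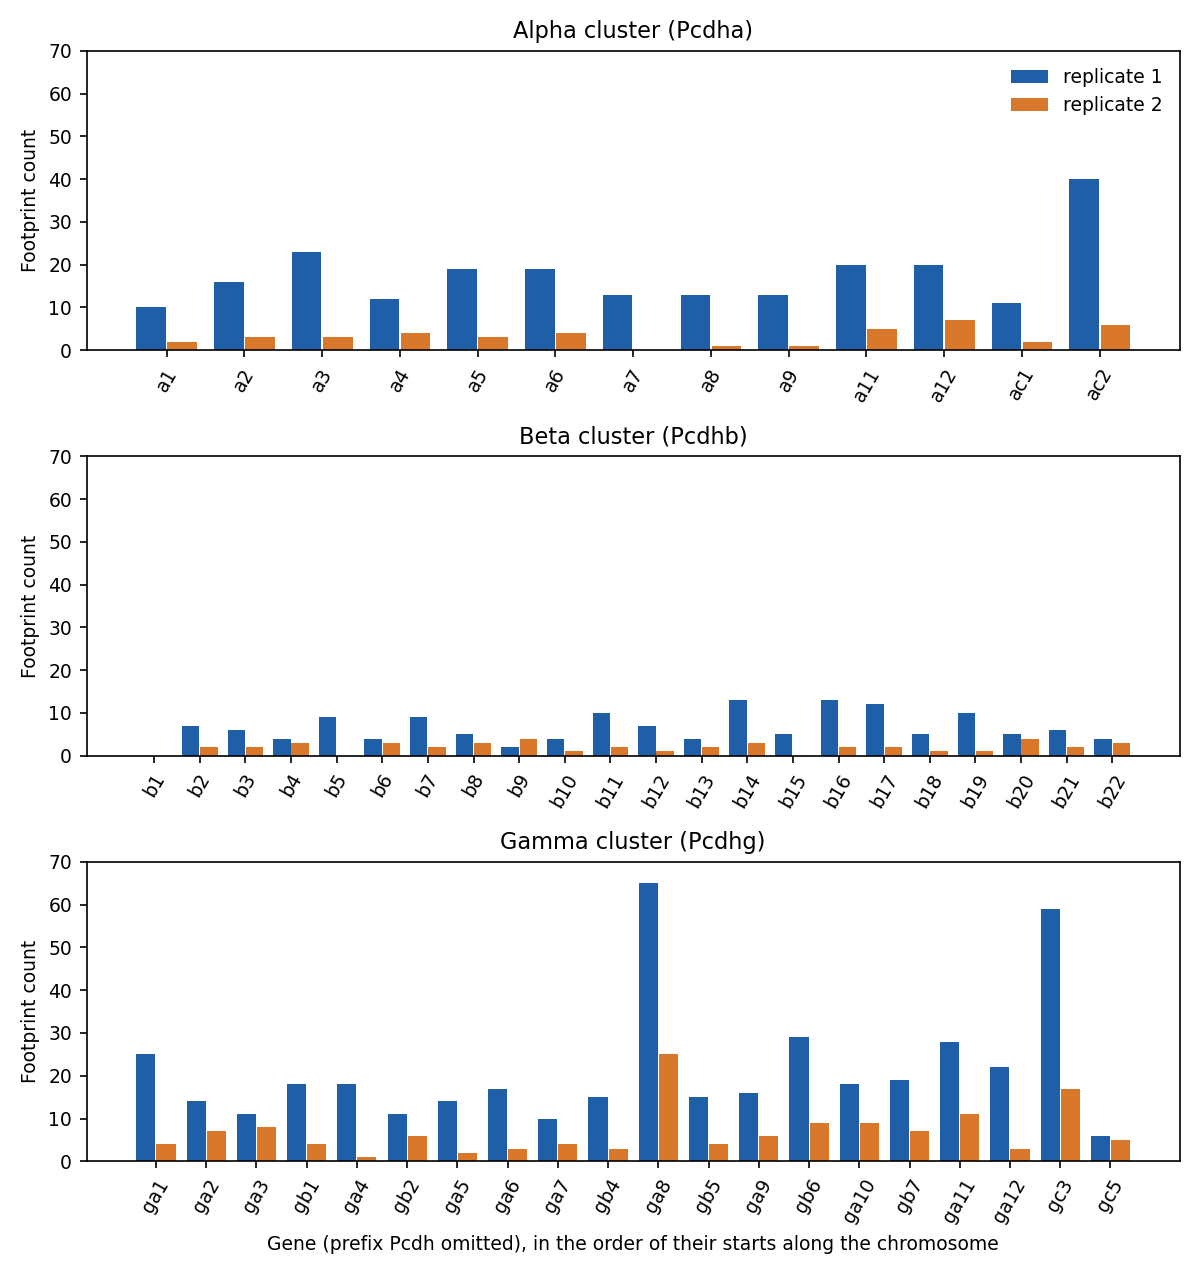
Footprint counts, not normalised, of each alpha, beta and gamma gene in replicate 1 (blue) and replicate 2 (orange), in the order of gene starts along the chromosome in RefSeq GRCm38.p6. Pcdhga8 (65 and 25) and Pcdhgc3 (59 and 17) have the highest counts of the gamma genes, Pcdhac2 (40 and 6) leads the alpha cluster in replicate 1, and no beta gene exceeds 13.

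The remaining question the design allows is whether the libraries differ in these genes. A 2-sided exact binomial test with Benjamini-Hochberg adjustment over all 5436 genes past the threshold called 4.14% of them (3.99% higher and 0.147% lower in replicate 2). Of the 4392 protein-coding genes among them it called 0.956% (0.82% higher and 0.137% lower). Of the 32 cadherin and protocadherin genes tested, 0 were called, and 0 had an unadjusted p under 0.05, which 5.62% of tested coding genes had. The edgeR exact test with a preset coefficient of variation gave 0 as well on both counts. Against so low a background, a count of 0 in 32 genes is no result about them.

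The log2 ratio between the libraries (replicate 2 to replicate 1, with a pseudocount of 1 CPM) was above 0 for 17 and below 0 for 15 of the 32. Their median was 0.048, against 0.0041 over all tested genes. With library totals as the scaling, these medians were -0.16 and -0.20. The ratio ran from -1.19 for Pcdha3 (adjusted exact binomial p = 0.887) to 0.71 for Pcdhga10 (adjusted exact binomial p = 0.888). Cdh2 had a ratio of 0.064, with a 95% interval of the fold from 0.684 to 1.56. The lowest unadjusted p was that of Pcdh17, at a log2 ratio of 0.53 and a fold between 0.932 and 2.21 (exact binomial p = 0.0868, adjusted 0.680). Across the 32 genes the levels had a Pearson r of 0.824 and a Spearman rho of 0.782. These are a description only, since genes of a cluster may share counted fragments and low counts take few values.

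Depth limited this comparison. At the 137 summed counts of Cdh2, the test could call a fold of at least 1.83 higher or at most 0.467 lower in replicate 2. At 20 summed counts only a fold of 4.94 or more could be called higher, and no count of replicate 2, not even 0, could be called lower.

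**Figure D4:**
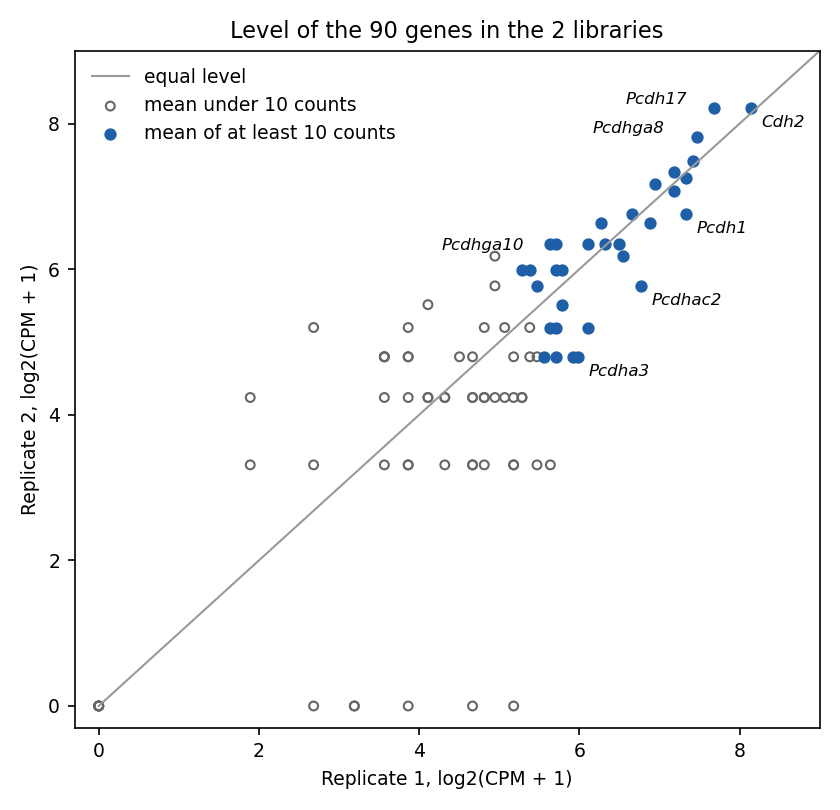
Level of the 90 genes in replicate 1 and replicate 2, both as log2(CPM + 1), with the 32 genes of at least 10 mean counts filled and the other 58 open. Filled points follow the line of equal levels, with Pcdha3 farthest below it (log2 ratio -1.19), and open points form rows because replicate 2 holds few counts per gene.

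The intracellular partners of the classical cadherins ranged from 0 counts (Ctnna3) to a density above that of Cdh2. Of 11 catenins and linked proteins found, 6 passed the threshold, 0 were called between the libraries and 1 had an unadjusted p under 0.05 (exact binomial). Of all tested coding genes 0.956% were called and 5.62% had such a p. Counts this small are therefore no result about this list or those below. Ctnnb1 (beta-catenin), which links cadherins to alpha-catenin and also carries Wnt signals, had 207 and 43 counts and a density of 201 ± 53.4 (SD, n = 2). Ctnnd2, the neuronal delta-catenin, had a density of 72.4 ± 11.3 and Ctnna2, the neuronal alpha-catenin, one of 48.7 ± 11.5. The median log2 ratio of the 6 tested genes was -0.092.

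Other members of the cadherin superfamily overlapped this range. Of 23 genes listed, 9 were tested, 0 were called and 2 had an unadjusted p under 0.05 (0.956% and 5.62% of tested coding genes). No count was present for 6. The calsyntenins Clstn1 and Clstn3, synaptic membrane proteins with cadherin repeats, stood at 226 ± 46.4 and 161 ± 3.97 CPM per kilobase (SD, n = 2), above Cdh2. Clstn2 stood at 54.0 ± 6.35. Of the 6 desmosomal genes in the list, Dsc1, Dsc3 and Dsg2 had 0 counts, Dsg1a had 1 and 2, Dsc2 had 2 and 0, and Dsg3 had 0 and 1.

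Promoter choice in the clusters depends on CTCF and cohesin, and protocadherin tails bind kinases. Of 14 such regulators and kinases, 11 were tested, 0 were called and 1 had an unadjusted p under 0.05 (0.956% and 5.62% of tested coding genes). The cohesin subunit Rad21 was densest at 84.0 ± 0.314 CPM per kilobase (SD, n = 2), followed by the kinase Fyn at 56.6 ± 25.0 and the insulator protein Ctcf at 36.1 ± 6.02. The methyltransferase Dnmt3b had 1 and 0 counts. Of the 9 genes of the WAVE complex, an actin regulator that binds delta-2 protocadherin tails, 7 were tested, 0 were called and 0 had an unadjusted p under 0.05. Brk1, the smallest subunit, stood at 271 ± 115, Wasf1 at 115 ± 4.34 and Abi2 at 63.5 ± 12.2.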

How the data were processed

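The authors deposited 1 table of whole-number footprint counts per transcript for 109463 mouse transcripts, with 1 column per replicate and no normalisation. Trimmomatic 0.36, Bowtie2 2.2.6, SAMtools and GRCm38.p4 are listed in the submitters' processing notes. The counting tool, the annotation release and the treatment of multiply matching fragments are not given in the sources used here, so no coordinates are printed.

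Each gene entered once, as the transcript holding most counts over both libraries (ties went to the longer). CPM is counts per library total, that total being summed over genes and scaled by TMM factors (edgeR 4.0.16) from genes averaging 10 counts or more. Density is CPM per 1000 nucleotides of the coding sequence of the highest protein-coding transcript, a choice made because the highest transcript of Pcdha4 is non-coding and that of Cdh10 is annotated for decay. Counts include untranslated regions. edgeR's quasi-likelihood test has no contrast to test with 1 group. The exact binomial test (scipy 1.17.1) compares these libraries, not conditions. It was checked only on simulated Poisson counts. These hold no spread beyond counting error, so the check cannot show how the test behaves on real libraries. The text names all tested members, the highest of each class and the 3 densest genes of each pathway list reported. Genes, lists and tests were chosen with earlier results of these data known. All 90 symbols were in the name table. Protein sequences were not used here. Alternatives were DESeq2 1.42.0 size factors, library totals, coding genes alone, other transcript choices, filters, a pseudocount of 0.1, a coefficient of variation of 0.2 and transcript length. A list of genes for cadherin-cleaving proteases is not reported here.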

Additional observations from a re-analysis of the deposited data

Results flagged for a closer look

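Outside the 90 genes, 1 gene with a protocadherin symbol had counts above the 3 that a count of 0 allows. Pcdhgb8, a gamma gene annotated as a polymorphic pseudogene with a coding sequence of 2796 nucleotides, had 11 counts in replicate 1 and 4 in replicate 2. The gamma genes had medians of 17.5 and 5.5. Its counts may include fragments of the shared constant exons, whose part was not tested.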

How the results depend on the processing

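No paired analysis was possible because the design holds a single group. The count of 0 called genes among the 90 held under every alternative except isoforms summed, which called 1 of 46, Pcdh18 (41 and 2 counts, log2 ratio -2.45, adjusted exact binomial p = 0.0423). The same setting, with isoforms summed, called 605 of all 8366 genes tested, a larger share. A fragment counted for several isoforms would enter such a sum repeatedly, and how often this occurred was not tested. Over all genes, 225 of 5436 were called in the main analysis, 42 of them among the 4392 coding genes. With coding genes alone 22 of 4392 were called, and with the preset coefficient of variation 131 of 5436. A mean of at least 50 counts gave 75 of 764, a larger share than in the main analysis, and left 2 of the 90 genes to test.

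The median log2 ratio of the tested cadherins and protocadherins reversed to -0.16 with library totals, which move the median of all genes to -0.20, to -0.029 on the longest coding isoforms and to -0.26 when genes needed only a count of 1 or more per library. That of Cdh2 reversed to -0.14, -0.12 and -0.0096 with library totals, a count of 1 or more per library and a mean of 50 or more. Neither was called.

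The median density of 10.4 became 13.5 for coding genes alone, 6.99 with isoforms summed and 6.08 per transcript length, and 9.57 to 11.7 without either replicate. The share of 0.419% became 0.542% of coding counts, and 0.382% to 0.457% without either replicate. With the alpha and gamma clusters each entered through the highest gene alone it was 0.277%, a lower limit. The lowest-member limits of 10 (alpha) and 7 (gamma) fragments became 0 to 10 and 1 to 6 without either replicate. The counts of the median member, 19 and 23, are no such limit, because a fragment counted for every gene cannot exceed the lowest count. Where no cause is given, the cause was not tested. Summed isoforms moved the density of 26 of the 32 named genes by more than their SD, and transcript length that of 26.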
